A study of Mus musculus with 12 samples.

Results

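The transcripts described here belong to 31 genes of homologous recombination and the DNA damage checkpoint, picked by their symbols from the 23420 genes of a raw count table of mouse pylorus RNA. All 31 were in the table and passed the filter on low counts, which kept 15369 genes for testing. They were sorted by role into the Brca1, Brca2 and Palb2 group, end resection, the Rad51b, Rad51c, Xrcc2 and Xrcc3 group, the Rad54 translocases, the Fanconi anaemia genes, the checkpoint genes, and Msh6 with Parp1. The RNA came from bulk pylorus, the muscular outlet of the stomach, in wild-type mice and in mice that carry the CEA424-SV40 T Ag transgene, all labelled C57BL/6. In that model a promoter of the human carcinoembryonic antigen gene expresses the SV40 large T antigen in cells of the gastric epithelium, and tumours arise in the pylorus. Mice were 60 days old (D60) or 80 days old (D80), and the 4 groups of 3 libraries are called D60 wild-type, D80 wild-type, D60 transgenic and D80 transgenic. The labels name no treatment. They do not say that each library came from a separate animal, so each p-value measures the spread between libraries, which may be technical.

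Homologous recombination repairs a broken chromosome by copying the intact sister strand during and after DNA replication. Nucleases trim the broken ends, Brca1, Palb2 and Brca2 prepare the single strand for strand exchange, Rad51b, Rad51c, Xrcc2, Xrcc3 and the Rad54 proteins assist the search for the sister strand and the entry into it, and the Fanconi anaemia proteins bring the same machinery to crosslinked DNA. The kinases Atm and Atr signal the damage to Chek2 and Chek1, which hold the cell cycle. Large T antigen binds p53 and the retinoblastoma proteins, which restrain E2F factors, and many replication and repair genes are known E2F targets in dividing cells.

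Total counts ran from 20121600 to 27633715 per library, and the lowest count of any of the 31 genes in any library was 14. Levels are CPM, counts scaled to a library total of 1e+06 and adjusted for composition with TMM factors (a trimmed mean of log ratios). Changes are log2 ratios from edgeR's quasi-likelihood test. The standard error (SE) was derived here as the absolute log2 ratio divided by the square root of that test's F statistic. Adjusted p-values cover all genes tested, and a gene is called higher or lower below an adjusted p of 0.05. Libraries differed in ways that bear on these genes. All D60 wild-type libraries carried Y-linked transcripts and at most 1 count of Xist, whereas all D60 transgenic libraries carried Xist, so genotype and sex cannot be told apart at D60. At D80 all wild-type libraries carried Xist, and transgenic replicate 1 carried Y-linked transcripts in place of it. The sum over 8 duodenal enterocyte markers was 10476 CPM in D80 wild-type replicate 3 against 541 and 2452 CPM in its group, and the sum over 8 pancreatic acinar markers was 3784 CPM in D80 transgenic replicate 1 against 904 and 767 CPM. Summed over the 8 neuroendocrine markers, levels were 294 to 535 CPM in the wild-type libraries, 4296 to 5876 at D60 and 24835 to 37224 at D80 in the transgenic ones, whereas the sum over 5 surface mucous markers was 54228 to 188526 CPM in the wild-type libraries and 16098 to 29113 CPM in the D80 transgenic ones. Comparing D80 wild-type with D80 transgenic libraries, 6 smooth muscle markers summed to 9120 to 15184 against 2276 to 2351 CPM (6 of 6 called lower) and 4 macrophage markers to 51.9 to 83.8 against 155 to 201 CPM (4 of 4 called higher). The 4 neutrophil markers summed to at most 1.04 CPM in D80 wild-type and to 7.72, 42.1 and 118 CPM in D80 transgenic libraries, and replicate 3 of the latter also stood apart in the sum over 6 B cell markers, at 44.6 against 4.05 and 5.53 CPM. The part of these markers in the D80 results was not tested. The 5 germline markers Dmc1, Sycp3, Sycp1, Spo11 and Stra8 summed to at most 0.590 CPM in any library.

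Promoter sequence is shown for called genes at the ends of the range of D80 fold changes, so that a strong and a weak response can be compared letter by letter. RefSeq (GRCm38.p6) had an entry for 24 of the 31 genes, and there was none for Rad50, Nbn, Rbbp8, Exo1, Xrcc2, Rad54b and Fancd2. Each line runs 5′ to 3′ on the gene's strand from position -250, and position -1 is the base before the RefSeq start. Capitals mark the motifs TTTCCCGC, TTTGGCGC, TTCCCGCC and TTTGGCGG, of the type bound by E2F factors, and TTTGAA, of the cell cycle homology region type, searched on both strands. Rad51c, which had the largest D80 change, is shown from chr11:87404952-87405204 on the minus strand, Bard1 from chr1:71102973-71103222 on the minus strand, Topbp1 from chr9:103305077-103305326 on the plus strand and Fanci from chr7:79392088-79392337 on the plus strand.
Rad51c: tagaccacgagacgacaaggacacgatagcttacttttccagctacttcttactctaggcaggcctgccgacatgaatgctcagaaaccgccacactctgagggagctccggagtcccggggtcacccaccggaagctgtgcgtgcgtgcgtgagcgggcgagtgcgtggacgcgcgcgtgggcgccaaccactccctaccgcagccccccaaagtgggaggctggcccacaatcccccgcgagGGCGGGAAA
Bard1: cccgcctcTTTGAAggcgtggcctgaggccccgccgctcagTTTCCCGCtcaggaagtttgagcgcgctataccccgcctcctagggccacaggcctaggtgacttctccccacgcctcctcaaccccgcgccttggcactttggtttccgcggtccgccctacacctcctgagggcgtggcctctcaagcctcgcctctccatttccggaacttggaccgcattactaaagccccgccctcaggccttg
Topbp1: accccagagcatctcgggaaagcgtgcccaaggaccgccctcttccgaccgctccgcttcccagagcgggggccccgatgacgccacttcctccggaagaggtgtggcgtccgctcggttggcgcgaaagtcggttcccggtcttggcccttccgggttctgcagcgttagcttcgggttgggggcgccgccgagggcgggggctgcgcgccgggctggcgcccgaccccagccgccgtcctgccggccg
Fanci: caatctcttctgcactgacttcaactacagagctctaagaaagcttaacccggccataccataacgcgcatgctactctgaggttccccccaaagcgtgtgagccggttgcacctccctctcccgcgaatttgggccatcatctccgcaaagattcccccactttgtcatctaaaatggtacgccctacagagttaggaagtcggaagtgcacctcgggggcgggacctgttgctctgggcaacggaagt
The capitals at the end of the Rad51c line are an overlapping TTTCCCGC and TTCCCGCC read from the opposite strand, and they reach position 3. The second RefSeq start of Rad51c had no match in its window. Bard1 held TTTGAA and TTTCCCGC, and the Topbp1 and Fanci windows held none of these letters. RefSeq starts differ from those of the GENCODE M21 annotation. GENCODE starts Fanci at 79391929, so the whole Fanci window lies inside that gene, and its starts of Topbp1 (103305215) and Bard1 (71103146) fall within the windows shown. The absence of a motif therefore holds for these RefSeq windows only.

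A called and an uncalled checkpoint gene, chosen after their values were seen, are shown as windows of 60 bases. Chek2 lies at chr5:110839805-110839864 and Clspn at chr4:126556833-126556892, both on the plus strand.
Chek2: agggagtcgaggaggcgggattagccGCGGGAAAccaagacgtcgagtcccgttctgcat
Clspn: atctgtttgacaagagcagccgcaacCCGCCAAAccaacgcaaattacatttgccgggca
Chek2 held TTTCCCGC and Clspn held TTTGGCGG, both read from the opposite strand. At least 1 of the 4 E2F type motifs was found in 9 of the 24 promoters with an entry, those of Bard1, Brca2, Rad51c, Fancb, Fancg, Clspn, Chek1, Chek2 and Msh6, against 4.22% of 27025 genes with a promoter of the same 300 bases. The 9 comprised 4 of the 11 genes called higher at D80 and 5 of the 13 that were not called. TTTGAA was found in 2 of the 24 and in 20.2% of genes, CCAAT in 15 of the 24 and in 41.1% of genes, and CCGGAAGT, an ETS type motif, in 1 of the 24 and in 4.31% of genes. Windows counted for Fancc and Chek1 also lay inside their GENCODE genes. A match is a description of the letters in a window and no more.

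The comparison of genotypes at D80 asks which repair genes differ once the transgenic pylorus has reached the older age. At D80, 15 of the 31 genes were higher in transgenic mice and 0 were lower, against 19.4% of all genes tested called higher and 22% called lower. The 15 were Brca1, Bard1, Brca2, Palb2, Brip1, Exo1, Blm, Rad51c, Xrcc2, Rad54b, Fanca, Fancd2, Fanci, Topbp1 and Clspn, with log2 fold changes of 0.75 to 1.81. The break sensors Mre11a, Rad50 and Nbn and the kinases Atm and Chek2 had values below 0, none of them past the threshold, and with no composition factor Mre11a, Rad50, Nbn and Atm came out above 0, at 0.34, 0.13, 0.28 and 0.21. That scaling moved the median of all genes up by 0.41. The median log2 fold change of the 31 genes was 0.62, against -0.07 over all genes tested. Every D80 transgenic library was above every D80 wild-type library for 21 of the 31 genes, and 24.4% of all genes tested were separated in that direction.

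**Figure D1:**
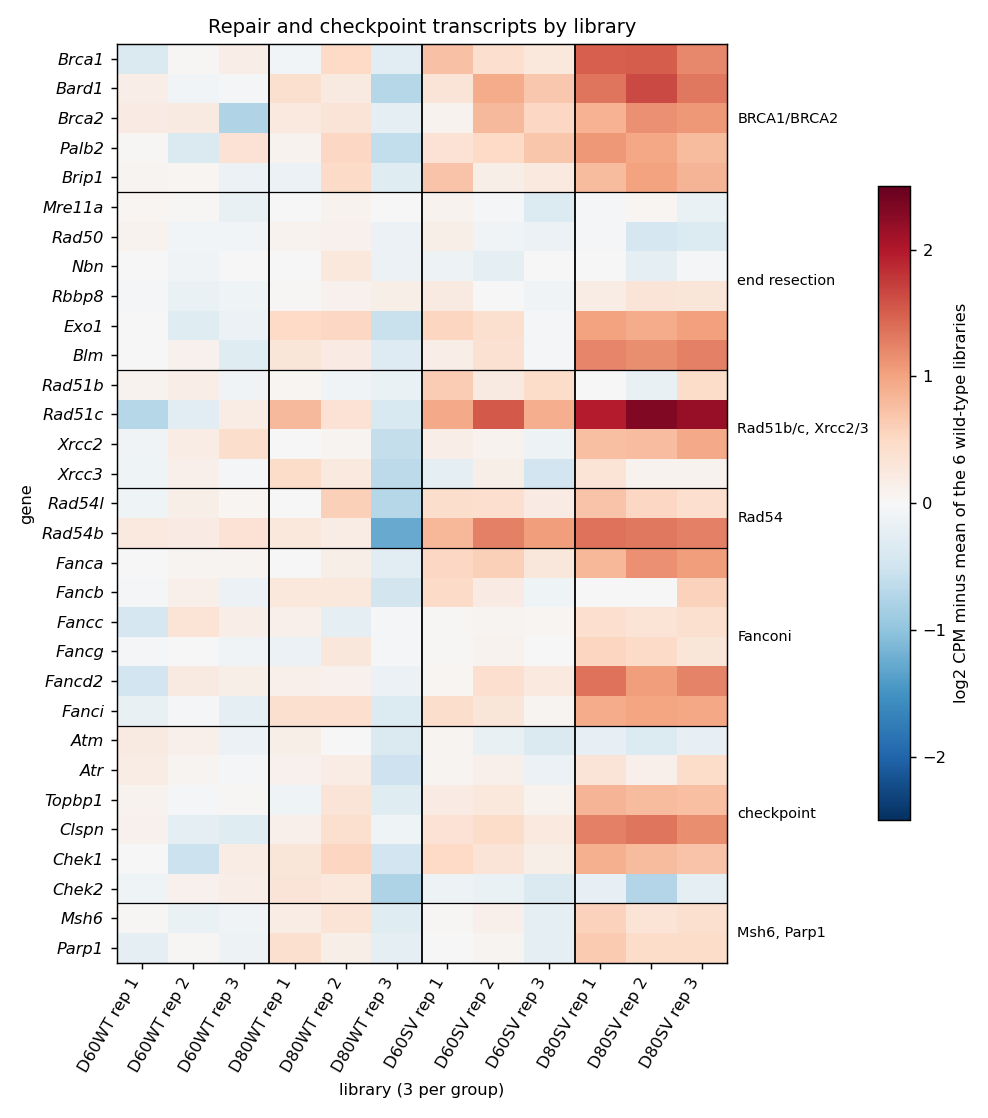
Heat map of the 31 genes (vertical axis, grouped by role) in the 12 libraries (horizontal axis, 3 per group). Colour is the log2 CPM minus the mean of the 6 wild-type libraries. Columns of the D80 transgenic group are red for most genes outside Mre11a, Rad50, Nbn, Atm and Chek2, and D80 wild-type replicate 3 is blue for most genes.

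The D80 count depended on which libraries entered. The 31 genes summed to 283 CPM in D80 wild-type replicate 3, while replicates 1 and 2 summed to 379 and 397 CPM and the D80 transgenic libraries to between 465 and 492 CPM. Without that library 11 genes were called higher, and Chek2 was called lower with a log2 fold change of -0.67 (edgeR's quasi-likelihood test, adjusted p = 0.0121). Without D80 transgenic replicate 1, 13 were called higher and Rad50 was called lower at -0.41 (adjusted p = 0.0492). Without both libraries, 10 were called higher and 2 lower. Brca1, Bard1, Blm, Rad51c, Xrcc2, Rad54b, Fanca, Fancd2, Topbp1 and Clspn, 10 genes in all, were called higher in the main fit and in every alternative that could test them. In bulk tissue, fewer cells of a type and less RNA per cell cannot be told apart, and the same holds for more. The 16 proliferation genes, among them Mki67, Mcm2 and Rrm2, summed to 1157 to 1305 CPM in D80 transgenic libraries against 827, 824 and 474 in D80 wild-type libraries, and their part in the result was not tested.

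All 5 genes of the Brca1, Brca2 and Palb2 group were higher in D80 transgenic mice. Brca1 (GRCm38 chromosome 11, 101488764 to 101551955), a ubiquitin ligase that promotes end resection and Palb2 recruitment, stood at 7.07, 10.4 and 6.20 CPM in D80 wild-type and 20.9, 21.2 and 17.0 CPM in D80 transgenic libraries. At D60 its levels were 5.80, 7.54 and 8.28 CPM in wild-type and 12.2, 9.87 and 8.85 CPM in transgenic libraries. Transgenic libraries lay above wild-type ones at each age, and the D80 transgenic values formed the highest block. The D80 log2 fold change was 1.32 (SE 0.22, adjusted p = 0.000835, higher in 3 of 3 libraries). Bard1 (chromosome 1, 71027498 to 71103146), the obligate partner of Brca1 in that ligase, stood at 4.23, 3.71 and 1.95 CPM in D80 wild-type and 8.08, 9.99 and 7.99 CPM in D80 transgenic libraries. At D60 it held 3.58, 3.06 and 3.14 CPM in wild-type and 3.99, 6.04 and 5.11 CPM in transgenic libraries. The genotypes did not overlap at either age, and the D80 log2 fold change was 1.40 (SE 0.27, adjusted p = 0.00215). The counts of Brca1 and Bard1 kept no fixed order between groups relative to each other, since their ratio within a library was 1.62 to 3.18 over the wild-type libraries and 2.12 to 2.59 over the D80 transgenic libraries.

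Brca2, which acts on single-stranded DNA at resected ends, rose at D80 from 4.84 ± 0.938 to 9.05 ± 0.889 CPM (SD, n = 3), a log2 fold change of 0.90 (SE 0.28, adjusted p = 0.0223). Palb2, the bridge between Brca1 and Brca2, rose from 2.09 ± 0.784 to 3.88 ± 0.398 CPM, by 0.89 (SE 0.29, adjusted p = 0.0307). Brip1, a helicase that binds the Brca1 C-terminal repeats, rose from 4.06 ± 1.24 to 7.23 ± 0.552 CPM, by 0.83 (SE 0.24, adjusted p = 0.0148). Groups did not overlap for these 3 genes, but their calls rested on single libraries. Without D80 wild-type replicate 3, 2 of the 5 genes were called, with adjusted p-values of 0.0751 for Brca2, 0.0961 for Palb2 and 0.0549 for Brip1. Without D80 transgenic replicate 2 the adjusted p-values were 0.0672, 0.0729 and 0.0528, in the same order. Brca2 also lost its call without D80 transgenic replicate 3 (adjusted p = 0.0525), and Palb2 without D80 transgenic replicate 1 (adjusted p = 0.0826) or D80 wild-type replicate 1 (adjusted p = 0.053). Palb2 was not called with sex as a covariate (adjusted p = 0.0814) or with only the groups compared (adjusted p = 0.0684).

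Among the 6 end resection genes, the late-acting Blm and Exo1 were higher in D80 transgenic mice, and the sensors of the Mre11a, Rad50 and Nbn complex and their cofactor Rbbp8 were not called. Blm (chromosome 7, 80454733 to 80535119), the RecQ helicase that works with nucleases in long-range resection, stood at 4.59, 4.32 and 2.99 CPM in D80 wild-type and 8.74, 8.37 and 9.01 CPM in D80 transgenic libraries. Its D60 levels were 3.77, 4.05 and 3.05 CPM in wild-type and 4.23, 4.87 and 3.66 CPM in transgenic libraries. Genotypes overlapped at D60 and were apart at D80, where the log2 fold change was 1.13 (SE 0.21, adjusted p = 0.00151). Exo1, a 5′ to 3′ exonuclease, stood at 6.87, 7.01 and 3.29 CPM in D80 wild-type and 9.82, 9.25 and 9.91 CPM in D80 transgenic libraries. In D60 wild-type libraries it held 4.81, 3.96 and 4.43 CPM, and in D60 transgenic libraries 7.03, 6.42 and 4.72 CPM. D80 wild-type replicate 3 was the lowest of all 12 libraries for Exo1, and the D80 log2 fold change was 0.75 (SE 0.26, adjusted p = 0.0385). Without that library the change was 0.47 (adjusted p = 0.0895). The call was also lost without any 1 of D80 transgenic replicates 1, 2 and 3 or D60 wild-type replicate 3, with adjusted p-values of 0.081, 0.0748, 0.0764 and 0.0535. The same held with only the groups compared (0.0792) and with sex as a covariate (0.0793), which nearly repeats leaving out D80 transgenic replicate 1.

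Mre11a, the nuclease of the sensor complex, stood at 14.1, 15.0 and 13.9 CPM in D80 wild-type and 13.7, 14.5 and 12.5 CPM in D80 transgenic libraries. The D60 levels were 14.6, 14.4 and 12.4 CPM in wild-type and 14.8, 13.8 and 11.1 CPM in transgenic libraries. The groups overlapped at both ages, and the 95% interval of the D80 log2 fold change ran from -0.39 to 0.23. Rad50, the ATPase that tethers the ends, stood at 23.9, 24.2 and 20.4 CPM in D80 wild-type and 22.0, 16.8 and 17.7 CPM in D80 transgenic libraries. Its D60 levels were 24.1, 21.6 and 21.5 CPM in wild-type and 25.1, 21.1 and 20.3 CPM in transgenic libraries. Replicate 1 of the D80 transgenic group lay inside the wild-type range and the other libraries of that group below it, with a D80 interval of -0.58 to 0.03. Nbn, which recruits Atm to the complex, stood at 22.3, 26.5 and 20.1 CPM in D80 wild-type and 22.0, 19.1 and 21.7 CPM in D80 transgenic libraries. In D60 libraries Nbn was at 21.9, 20.7 and 21.9 CPM in wild-type and 20.3, 19 and 22.4 CPM in transgenic mice. Its groups overlapped, and the D80 interval was -0.41 to 0.14. Rbbp8, which stimulates the Mre11a nuclease, was at 22.9 ± 0.949 CPM in D80 wild-type and 25.9 ± 1.25 CPM in D80 transgenic libraries, with an interval of -0.07 to 0.42.

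**Figure D2:**
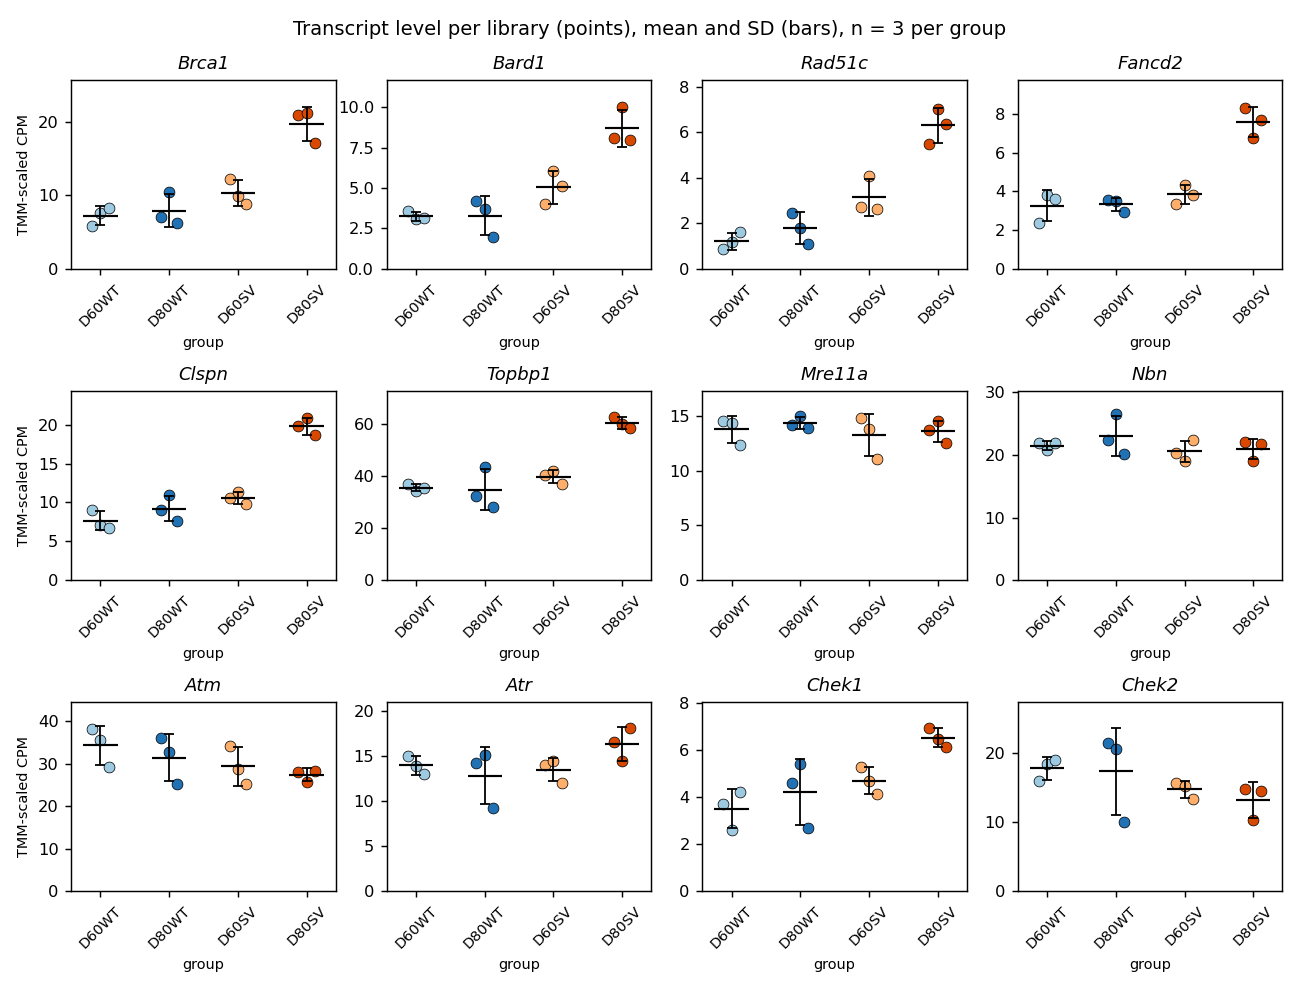
CPM after TMM scaling (vertical axis, starting at 0) in the 4 groups (horizontal axis) for 12 of the genes. Points are libraries, the long line is the mean and the bars are the SD (n = 3). Brca1, Bard1, Rad51c, Fancd2, Clspn and Topbp1 are highest in all 3 D80 transgenic libraries, while Mre11a, Nbn and Atm overlap between groups.

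The Rad51b, Rad51c, Xrcc2 and Xrcc3 group split at D80, with Rad51c and Xrcc2 higher in transgenic mice and Rad51b and Xrcc3 not called. Rad51c (chromosome 11, 87376645 to 87404954) takes part in a pair of complexes, one with Rad51b and Xrcc2 and one with Xrcc3. It stood at 2.48, 1.81 and 1.08 CPM in D80 wild-type and 5.5, 7.04 and 6.38 CPM in D80 transgenic libraries. At D60 it held 0.864, 1.18 and 1.62 CPM in wild-type and 2.72, 4.08 and 2.64 CPM in transgenic libraries. Genotypes did not overlap at either age, and the D80 log2 fold change of 1.81 (SE 0.33, adjusted p = 0.00133), a fold of 3.51, was the largest of the 31 genes in this fit. Xrcc2 (chromosome 5, 25689812 to 25705825) stood at 3.98, 4.15 and 2.60 CPM in D80 wild-type and 6.70, 6.75 and 7.62 CPM in D80 transgenic libraries. In D60 wild-type libraries it held 3.70, 4.47 and 5.38 CPM, and in D60 transgenic libraries 4.43, 4.21 and 3.62 CPM. The genotypes overlapped at D60 and separated at D80, by 0.97 on the log2 scale (SE 0.22, adjusted p = 0.005). Rad51b was at 1.16 ± 0.0893 and 1.31 ± 0.317 CPM and Xrcc3 at 4.41 ± 1.58 and 4.68 ± 0.498 CPM in D80 wild-type and transgenic libraries, with 95% intervals of -0.41 to 0.76 and -0.51 to 0.68.

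Of the Rad54 translocases, which drive strand invasion, Rad54b was higher at D80 and Rad54l was not called. Rad54b (chromosome 4, 11558922 to 11615805) stood at 1.87, 1.76 and 0.65 CPM in D80 wild-type and 3.96, 3.87 and 3.75 CPM in D80 transgenic libraries. At D60 the levels were 1.85, 1.79 and 2.0 CPM in wild-type and 2.77, 3.75 and 3.19 CPM in transgenic libraries. Every transgenic library lay above every wild-type library at both ages, and the D80 log2 fold change was 1.43 (SE 0.33, adjusted p = 0.00509). Rad54b shares 35.8% of its exonic bases with Fsbp on the same strand, and Fsbp was at 0.113 and 0.181 CPM in D80 wild-type and transgenic libraries. Rad54l stood at 5.69, 8.51 and 3.47 CPM in D80 wild-type and 9.25, 8.11 and 7.59 CPM in D80 transgenic libraries. Its D60 levels were 5.25, 6.26 and 5.85 CPM in wild-type and 7.69, 7.58 and 6.51 CPM in transgenic libraries. The D80 groups overlapped at wild-type replicate 2, and the change was 0.50 (SE 0.26, adjusted p = 0.152). Without that library it was 0.86 (adjusted p = 0.0189). Exons of Rad54l overlap Lrrc41 on the opposite strand over 15.4% of their bases. Lrrc41 was at 55.9 CPM in D80 wild-type and 49.6 CPM in D80 transgenic libraries, and the strand setting of the counting is not given in the sources used here.

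Of the 6 Fanconi anaemia genes, Fanca, Fancd2 and Fanci were higher at D80, and Fancb, Fancc and Fancg were not called. Fanca (chromosome 8, 123268300 to 123318576), a subunit of the core complex that ubiquitinates Fancd2, stood at 8.04, 8.95 and 6.72 CPM in D80 wild-type and 14.4, 17.7 and 16.6 CPM in D80 transgenic libraries. At D60 it held 8.02, 8.43 and 8.42 CPM in wild-type and 11.6, 12.2 and 9.79 CPM in transgenic libraries. The transgenic libraries lay above the wild-type ones at both ages, and the D80 log2 fold change was 1.04 (SE 0.16, adjusted p = 0.000415). Fancd2 (chromosome 6, 113531682 to 113597017), which is clamped on DNA with Fanci, stood at 3.58, 3.48 and 2.95 CPM in D80 wild-type and 8.32, 6.75 and 7.71 CPM in D80 transgenic libraries. In D60 wild-type libraries Fancd2 held 2.35, 3.81 and 3.62 CPM, and in D60 transgenic libraries 3.38, 4.33 and 3.83 CPM. It overlapped between genotypes at D60 and not at D80, where the change was 1.19 (SE 0.22, adjusted p = 0.00147). Fanci stood at 5.57, 5.65 and 3.34 CPM in D80 wild-type and 8.02, 8.44 and 8.27 CPM in D80 transgenic libraries. Its D60 levels were 3.70, 4.14 and 3.57 CPM in wild-type and 5.77, 5.21 and 4.43 CPM in transgenic libraries. Genotypes were apart at both ages, and the D80 change was 0.76 (SE 0.21, adjusted p = 0.014), or 0.57 (adjusted p = 0.0698) without both D80 wild-type replicate 3 and D80 transgenic replicate 1. The core complex subunits Fancc and Fancg had D80 changes of 0.42 (adjusted p = 0.0967) and 0.40 (adjusted p = 0.0576), both with separated groups, and Fancb one of 0.16 with overlapping groups. Without D60 wild-type replicate 1, Fancc and Fancg were called, with adjusted p-values of 0.0239 and 0.0496, and Fancg was also called without D80 wild-type replicate 2 (adjusted p = 0.0301). DESeq2 called both (adjusted p = 0.0359 and 0.0179). Exons of Fanca overlap Zfp276 on the opposite strand over 10.5% of their bases, those of Fanci overlap Polg over 16.0% and those of Fancc overlap Gm16133 over 16.4%. Whether the counting used strand is not given in the sources used here.

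Among the 6 checkpoint genes, Topbp1 and Clspn were higher at D80, and the kinases Atm, Atr, Chek1 and Chek2 were not called. Topbp1 (chromosome 9, 103305215 to 103350428), a scaffold that switches on Atr, stood at 32.4, 43.4 and 28.2 CPM in D80 wild-type and 62.8, 59.9 and 58.3 CPM in D80 transgenic libraries. In mice of 60 days it held 36.8, 34.2 and 35.3 CPM in wild-type and 40.3, 41.8 and 36.8 CPM in transgenic libraries, so the highest wild-type and the lowest transgenic level were nearly equal. The D80 log2 fold change was 0.80 (SE 0.14, adjusted p = 0.00118). Clspn (chromosome 4, 126556935 to 126593903), the adaptor that presents Chek1 to Atr, stood at 9.02, 10.9 and 7.67 CPM in D80 wild-type and 19.8, 20.9 and 18.7 CPM in D80 transgenic libraries. Its D60 levels were 9.01, 7.16 and 6.76 CPM in wild-type and 10.6, 11.4 and 9.83 CPM in transgenic libraries. Clspn did not overlap between genotypes at either age, and the D80 change was 1.11 (SE 0.17, adjusted p = 0.000417).

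Atm stood at 36.0, 32.8 and 25.2 CPM in D80 wild-type and 28.1, 25.6 and 28.3 CPM in D80 transgenic libraries. In D60 libraries it held 38.1, 35.5 and 29.3 CPM in wild-type and 34.2, 28.7 and 25.2 CPM in transgenic mice. Groups overlapped at both ages, and the D80 interval ran from -0.55 to 0.15. Chek2, the Atm target, stood at 21.5, 20.6 and 10.1 CPM in D80 wild-type and 14.9, 10.3 and 14.6 CPM in D80 transgenic libraries. At D60 it held 16.0, 18.5 and 19.1 CPM in wild-type and 15.7, 15.3 and 13.3 CPM in transgenic libraries. The transgenic libraries lay below the wild-type ones at D60, and at D80 the single low wild-type value made the groups overlap. The D80 change was -0.39 (SE 0.25, adjusted p = 0.231), and -0.67 (adjusted p = 0.0121) without D80 wild-type replicate 3. Atr was at 12.8 ± 3.15 and 16.3 ± 1.86 CPM in D80 wild-type and transgenic libraries, a change of 0.35 (SE 0.18, adjusted p = 0.147). Its target Chek1 was at 4.23 ± 1.4 and 6.52 ± 0.403 CPM, a change of 0.62 (SE 0.26, adjusted p = 0.0789). Chek1 was called without D80 wild-type replicate 2, at 0.84 (adjusted p = 0.0452), and by DESeq2 (adjusted p = 0.0382) and limma-voom (adjusted p = 0.0428).

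Msh6 and Parp1 were not called between genotypes at D80. Msh6, a mismatch sensor, stood at 26.8, 29.9 and 19.2 CPM in D80 wild-type and 34.9, 29.97 and 31 CPM in D80 transgenic libraries. Levels at D60 were 23.8, 20.9 and 22.0 CPM in wild-type and 24.0, 25.6 and 19.9 CPM in transgenic libraries. The D80 groups were narrowly apart, by 0.34 on the log2 scale (SE 0.16, adjusted p = 0.114). Parp1, which marks strand breaks with ADP-ribose chains, stood at 62.5, 52.2 and 40.0 CPM in D80 wild-type and 74.1, 64.4 and 64.4 CPM in D80 transgenic libraries. Its D60 levels were 40.4, 47.8 and 43.3 CPM in wild-type and 47.4, 49.5 and 40.1 CPM in transgenic libraries. D80 transgenic libraries again lay above their controls, by 0.39 (SE 0.15, adjusted p = 0.0616). Parp1 was called without D80 wild-type replicate 1 (adjusted p = 0.0105), D60 wild-type replicate 1 (adjusted p = 0.0459) or D60 transgenic replicate 2 (adjusted p = 0.0493), and by DESeq2 (adjusted p = 0.0278).

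The comparison of genotypes at D60 asks how far the same genes differ at the younger age. Rad51c was the 1 gene called higher and 0 were called lower, against 3.66% and 0.241% of all genes tested. Its log2 fold change was 1.35 (SE 0.34, adjusted p = 0.0497), a value at the threshold. The call was lost in 17 of the alternatives, among them leaving out any 1 of the 6 D60 libraries, with adjusted p-values of 0.0608 to 0.204. With sex as a covariate the change was 1.07 (adjusted p = 0.9998). That fit cannot separate sex from genotype at D60, because its sex term rests on D80 transgenic replicate 1 alone. Leaving out replicate 2 of the D80 wild-type group, or 1 of the 3 D80 transgenic libraries, also ended the Rad51c call, with adjusted p-values of 0.0688 to 0.0858. The log2 fold changes of Brca1, Bard1, Rad54b, Fanca and Clspn were 0.52, 0.63, 0.78, 0.43 and 0.47, each with an unadjusted p under 0.05 and an adjusted p of 0.189 to 0.315. With Rad51c, 6 of the 31 genes had an unadjusted p under 0.05, and so did 2255 of the 15369 genes tested. The median of the 31 genes was 0.23, against -0.0041 over all genes tested. Every D60 transgenic library lay above every D60 wild-type library for 12 of the 31 genes, and 12.2% of all genes tested were separated that way. The proliferation genes summed to 745 to 912 CPM in D60 transgenic and 640 to 757 CPM in D60 wild-type libraries, and their part was not tested.

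**Figure D3:**
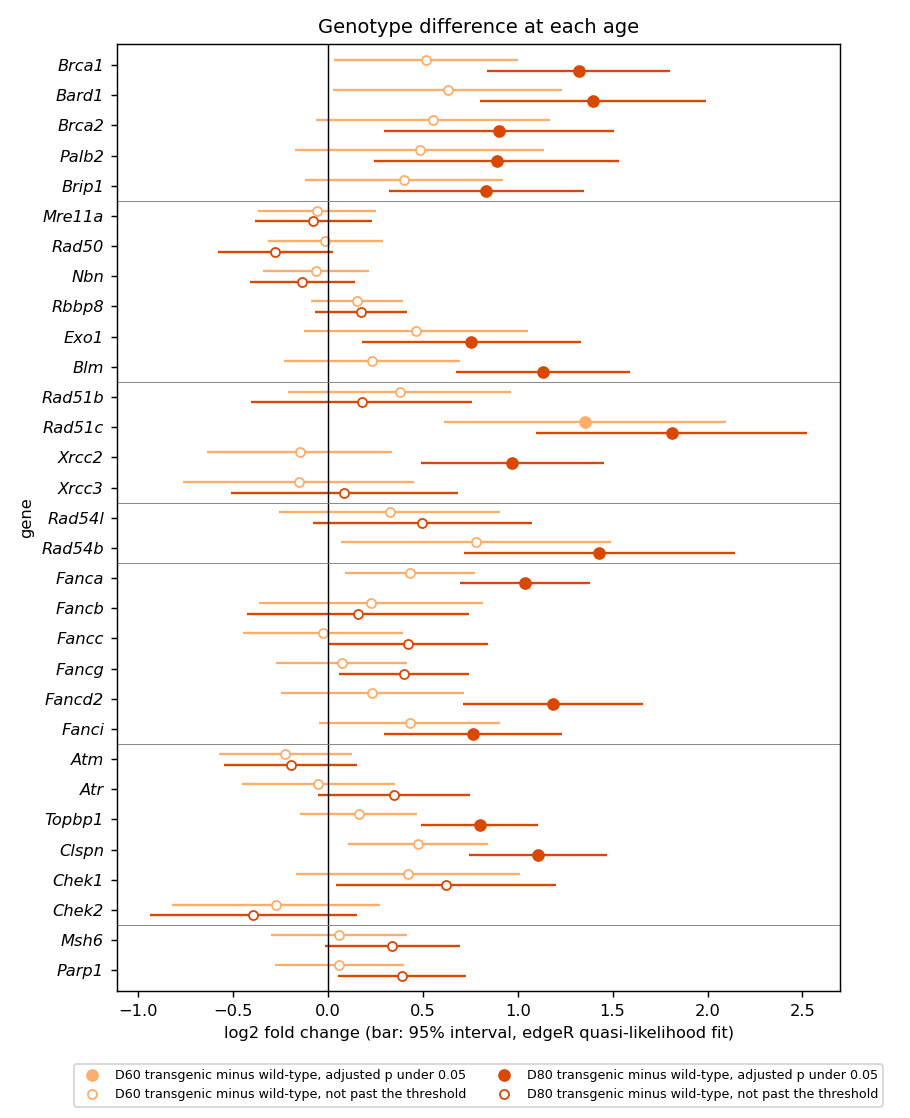
Log2 fold change of transgenic over wild-type mice (horizontal axis) for the 31 genes (vertical axis, by role) at D60 (light) and D80 (dark). Bars are 95% intervals built from the derived SE and filled points have an adjusted p under 0.05. Filled points number 1 at D60 and 15 at D80.

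The comparison of ages within transgenic mice asks which genes rose between 60 and 80 days, and it shares the D80 transgenic libraries with the D80 comparison of genotypes. Here 12 of the 31 genes were higher at D80 and 0 lower, against 17.7% and 18% of all genes tested. They were Brca1 (log2 fold change 0.93), Bard1 (0.78), Blm (1.03), Rad51c (1.0), Xrcc2 (0.78), Fanca (0.54), Fancd2 (0.98), Fanci (0.68), Topbp1 (0.61), Clspn (0.90), Msh6 (0.46) and Parp1 (0.57), with adjusted p-values of 0.00218 to 0.0431. The median of the 31 genes was 0.46, against 0.02 over all genes. The age groups did not overlap for 19 of the 31 genes, with D80 higher, and 30.6% of all genes tested were separated that way. Rad54b, which differed between genotypes at D80, held 2.77 to 3.75 CPM at D60 and 3.75 to 3.96 CPM at D80, a change of 0.25 (SE 0.31, adjusted p = 0.551). Without D60 transgenic replicate 3, 5 genes stayed past the threshold, namely Brca1, Blm, Fancd2, Topbp1 and Clspn, and the other calls had adjusted p-values of 0.0692 to 0.158. Without D80 transgenic replicate 2, 7 were called, the losses being Bard1, Rad51c, Fanca, Fanci and Msh6 (adjusted p of 0.0721 to 0.133), and without replicate 3 also 7, the losses being Bard1, Rad51c, Xrcc2, Fanci and Msh6 (0.0552 to 0.0674). Without D80 transgenic replicate 1, 8 were called, the losses being Bard1, Fanci, Msh6 and Parp1 (0.0537 to 0.129), and without D60 transgenic replicate 1, 9, the losses being Bard1, Rad51c and Msh6 (0.0831 to 0.133). Fanci was lost without D60 transgenic replicate 2 (0.0518), Msh6 without D60 wild-type replicate 2 (0.0532), and Bard1 and Msh6 without D60 wild-type replicate 3 (0.0547 and 0.0601). With sex as a covariate 8 were called, the losses being Bard1, Fanci, Msh6 and Parp1 (0.0527 to 0.126). Sex varied only within the D80 transgenic group, so this fit sets its replicate 1 aside and nearly repeats leaving that library out. Exo1 was gained without D80 wild-type replicate 3 (0.0138) and Fancg without D60 wild-type replicate 1 (0.0497).

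The libraries of the D60 wild-type group carried Y-linked transcripts and those of the D80 wild-type group Xist, so age and sex cannot be told apart in wild-type mice. Between these ages 0 of the 31 genes and 0% of all genes tested in either direction were called by edgeR's quasi-likelihood test, and 0 of the 31 had an unadjusted p under 0.05. DESeq2 called 0 of the 31 genes as well. Over all genes 1925 had an unadjusted p under 0.05, DESeq2 called 254, and edgeR called 396 without D80 wild-type replicate 1. Rbbp8 was the 1 gene whose D80 wild-type libraries, at 21.9 to 23.8 CPM, lay above all D60 wild-type libraries, at 19.1 to 21.0 CPM, and 7.06% of all genes tested were separated that way.

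The interaction tests whether the difference between genotypes itself changed from D60 to D80. All D60 wild-type libraries carried Y-linked transcripts, and all D60 transgenic and D80 wild-type libraries carried Xist. Such a change can therefore not be told apart from sex. None of the 31 genes passed, 0 in all, against 2.77% of all genes called higher and 2.23% called lower. An unadjusted p under 0.05 was found for 7 of the 31 genes and for 3567 of the 15369 genes tested, a similar share. The largest estimate was that of Xrcc2, 1.12 (SE 0.31, adjusted p = 0.0616), followed by Fancd2 at 0.95 (SE 0.31, adjusted p = 0.0932) and Blm at 0.90 (SE 0.30, adjusted p = 0.098). Topbp1 had an interaction of 0.64 (SE 0.20, adjusted p = 0.0855). DESeq2 called 5 genes, Blm, Xrcc2, Fanca, Fancd2 and Topbp1, and limma-voom 0. Xrcc2 and Fancd2 were called without D60 wild-type replicate 1 (adjusted p = 0.0452 and 0.0357), Xrcc2 and Blm without D80 wild-type replicate 1 (0.0352 and 0.0486) and Topbp1 without D80 wild-type replicate 2 (0.0239). The calls at D80 and not at D60 are therefore not shown to differ between ages in the main fit.

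Ratios of counts of paired genes within a library do not depend on scaling. They were computed for 12 pairs and are given as descriptions, because 3 libraries against 3 cannot give an exact permutation p below 0.1. Chek1 to Chek2 was 0.140 to 0.232 in D60 wild-type, 0.214 to 0.266 in D80 wild-type, 0.304 to 0.338 in D60 transgenic and 0.421 to 0.631 in D80 transgenic libraries. Transgenic libraries lay above wild-type ones at each age, and D80 transgenic above D60 transgenic. Atr to Atm was 0.366 to 0.460 over the wild-type libraries, 0.408 to 0.504 in D60 transgenic and 0.563 to 0.640 in D80 transgenic libraries. This ratio overlapped at D60 and was apart at D80. Rad51c to Rad51b was 0.667 to 1.97 over the wild-type libraries and 3.81 to 6.59 in D80 transgenic libraries. Xrcc2 to Xrcc3 was 0.700 to 0.984 in D80 wild-type and 1.27 to 1.73 in D80 transgenic libraries, but D60 wild-type replicate 3 reached 1.35. For both of these pairs, the ratio of the called to the uncalled gene was above the D80 wild-type range in all 3 D80 transgenic libraries. Each pair sets a gene called higher at D80 over an uncalled one, so a higher D80 ratio largely follows from that choice.

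Rad54b to Rad54l, again a gene called at D80 over an uncalled one, was 0.188 to 0.353 over the wild-type libraries and 0.360 to 0.495 over the transgenic ones. The groups were apart at both ages. A further 2 pairs of partners had D80 ratios that overlapped between genotypes. Fancd2 to Fanci was 0.617 to 0.883 in D80 wild-type and 0.799 to 1.04 in D80 transgenic libraries, and Mre11a to Rad50 was 0.591 to 0.679 and 0.621 to 0.866, in the same order. Against the proliferation marker Mki67, Brca1 stood at 0.0399 to 0.0770 over the wild-type libraries and 0.104 to 0.112 in D80 transgenic libraries. Mki67 itself was at 121 ± 34.2 CPM in D80 wild-type and 182 ± 16.1 CPM in D80 transgenic libraries. Other proliferation genes moved by other amounts, Mcm2 from 30.1 to 89.0, Rrm2 from 33.3 to 93.4 and Birc5 from 30.1 to 32.0 CPM. Ratios to these were not computed, so a ratio to Mki67 does not stand for one to proliferation genes at large. Topbp1 to Mki67 overlapped at D80, at 0.222 to 0.342 and 0.316 to 0.355, and Atm to Mki67 was lower in D80 transgenic libraries, at 0.135 to 0.173 against 0.242 to 0.307.

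**Figure D4:**
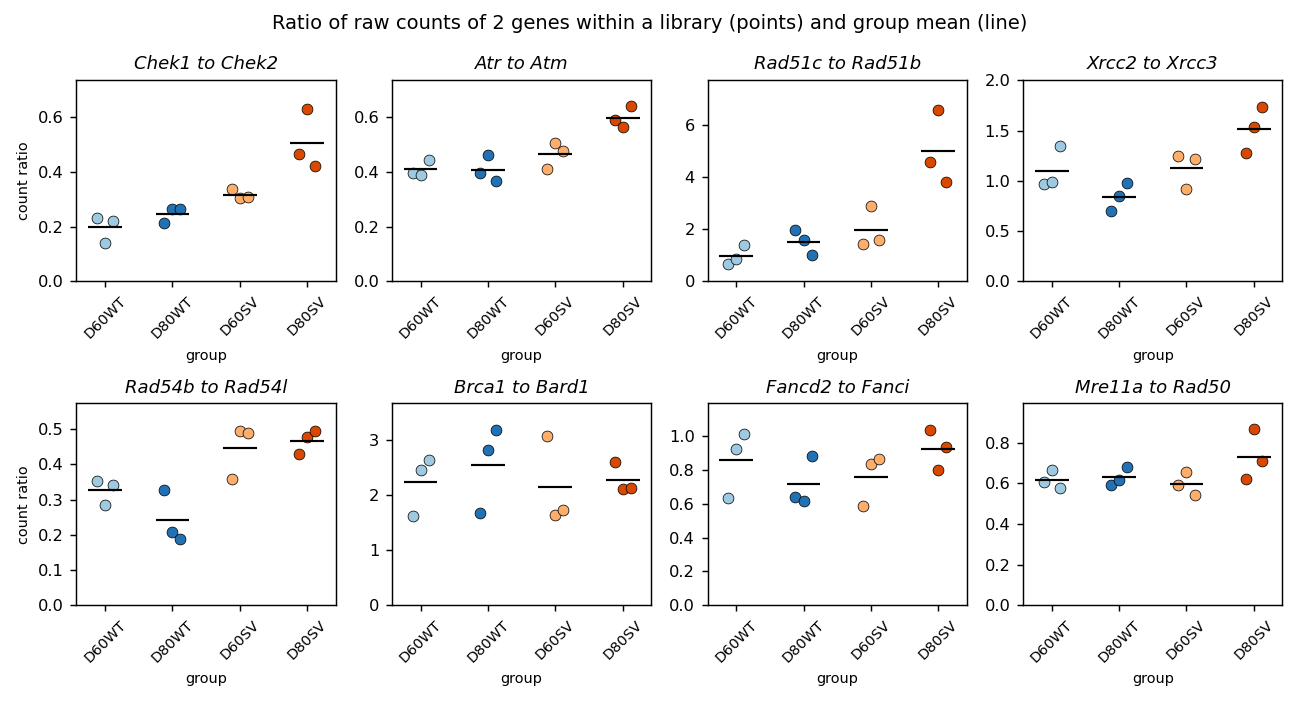
Ratio of the raw counts of 2 genes in the same library (vertical axis, starting at 0) in the 4 groups (horizontal axis). Points are libraries and lines are group means. Chek1 to Chek2 is 0.421 to 0.631 in D80 transgenic libraries and at most 0.266 in the wild-type ones, while Brca1 to Bard1 overlaps between groups.

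Per kilobase of exon (GENCODE M21 union exons), the order of levels was led by Nbn and Parp1 in D60 wild-type libraries, at 8.49 ± 0.269 and 8.27 ± 0.703 CPM per kb, which did not differ beyond their spread. Rad51c had the lowest mean per kilobase of the 31 genes there, at 0.278 ± 0.0864, next to Palb2 at 0.280 ± 0.0692. In D80 transgenic libraries Parp1 stood first at 12.8 ± 1.06 CPM per kb and Rad51c ranked 16th at 1.44 ± 0.177, while Palb2 ranked 30th at 0.528 ± 0.0542 and Rad51b 31st at 0.350 ± 0.0845. Brca1 moved from rank 17 at 0.845 ± 0.149 CPM per kb in D60 wild-type to rank 10 at 2.31 ± 0.272 in D80 transgenic libraries. Msh6, at 7.35 ± 0.602, Topbp1, at 5.37 ± 0.203, and Chek2, at 4.41 ± 0.857 CPM per kb, also stood among the first 5 genes in D80 transgenic libraries.

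Other repair lists were read from the same fit at D80, beside the 19.4% of all genes called higher and 22% called lower. Of 20 other recombination genes 8 were higher and 1 lower. Rpa1, the single-strand binding protein, rose by 1.40 (SE 0.14, adjusted p = 2.0e-05) from 56.8 ± 8.86 to 150 ± 22.2 CPM, and the nuclease scaffold Slx4 rose by 0.69, while Rad51d fell by 0.54 (SE 0.12, adjusted p = 0.0043). Of 10 other Fanconi pathway genes 3 were higher and 0 lower, among them the ubiquitin-conjugating enzyme Ube2t at 1.83 and the translocase Fancm at 1.10. Of 16 other checkpoint genes 7 were higher and 1 lower, with the fork protection protein Timeless at 1.70 and the chromatin adaptor Mdc1 at 0.93, and the lower gene was the phosphatase Cdc25a at -0.47 (adjusted p = 0.0243).

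Of 11 end-joining genes, which reseal breaks without a template, 1 was higher and 0 lower. It was Trp53bp1, which shields ends from resection, at 1.05 (SE 0.17, adjusted p = 0.000759), and its partner Rif1 was at 0.43 (adjusted p = 0.066). Of 12 nucleotide excision genes 0 were higher and 1 was lower, the helicase Ercc3 at -0.31 (adjusted p = 0.0307), and the damage sensor Ddb2 was at 0.41 (adjusted p = 0.177). Of 12 base excision genes 3 were higher and 0 lower, led by the glycosylases Neil3 at 1.72 and Mutyh at 1.56. Of 16 p53 target genes 2 were higher and 5 lower, among them Perp at -1.55 and Zmat3 at -0.60. Of 16 proliferation genes 13 were higher and 0 lower, with Mcm2 at 1.56 and Rrm2 at 1.49 on the log2 scale.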

How the data were processed

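RNA-seq was run on 12 libraries of mouse pylorus, 3 per group. Per the labels' protocols, the library kit was stranded and selected mRNA. The authors deposited raw counts per gene for 23420 symbols and a normalized signal table of 15465 genes. The submitters' processing notes list mm10, edgeR 3.16.5, HTSeq 0.9.1 and STAR 2.5.3a. Which annotation and strand setting were used was not given in the sources used here.

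Each value of the normalized signal is a deposited count divided by 1 factor per library. Whole reads recovered from it, at a tolerance of 0.01 of a count, came out whole for 100% of values, and 100% of those in the 15442 genes matched by name equalled the raw counts. Results rest on the raw counts, 20121600 to 27633715 per library. In R 4.3.3, edgeR 4.0.16 kept 15369 genes by filterByExpr with the 4 groups, scaled them by TMM (factors 0.805 to 1.30) and fitted 1 coefficient per group by quasi-likelihood, leaving 8 residual degrees of freedom (biological coefficient of variation 24.2%). The Benjamini-Hochberg adjustment covered all genes tested, at a threshold of 0.05. Intervals are at 95% and were built from the derived SE, so they are approximate. The fit was tested on simulated data in which rises were planted in a small set of genes and all others were left unchanged. Changes in as many genes as were called at D80 were not simulated, so that test does not cover the scaling there.

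The 31 genes, the other lists and the tests were chosen with earlier results of these data known. Values in every library are given for genes called at D60, in the interaction or between ages in transgenic mice, for the 2 genes with the smallest p in each role group at D80, and for those below 0 at D80. The 2 genes with the smallest p at D80 are named from each other list, and Rad51d and Cdc25a, each the 1 lower gene of its list, after their values were seen. Some genes and the mismatch repair list are not reported here. Gene positions come from GENCODE M21 on GRCm38 and promoters from RefSeq.

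The titles' replicate numbers paired no libraries: over 18 same-number pairs the residual correlation averaged -0.00405 (range -0.344 to 0.393), so no block was in the model. The alternatives were other scaling factors, other filters, DESeq2 1.42.0, limma-voom and limma on the deposited normalized signal as log2(value + 0.5) (limma 3.58.1), the groups compared alone, a replicate block, sex read from Xist and Y-linked genes as a covariate, and libraries left out. Sex varied within 1 group only, D80 transgenic, so the sex term rests on replicate 1 of that group against replicates 2 and 3. Counts recovered from the normalized table were an alternative chosen after seeing the data.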

Additional observations from a re-analysis of the deposited data

How the results depend on the processing

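Genes of the 31 called at D80 numbered 15 in the main fit and 23 with no composition factor, and 11 to 18 when 1 library was left out. With sex as a covariate 13 were higher and Rad50 lower, as without D80 transgenic replicate 1. Between ages in transgenic mice the called genes numbered 12, 20 with no composition factor, 8 with sex as a covariate and 5 to 13 with 1 library left out. With no composition factor the median of all genes moved up by 0.11 at D60, 0.41 at D80 and 0.37 between transgenic ages, and calls at D80 over all genes split 5104 higher to 1001 lower against 2974 to 3380 in the main fit (3571 to 2093 with upper-quartile factors). The 1 D60 call became 0 with no composition factor, upper-quartile factors, every gene with at least 1 count or limma-voom. It also became 0 with only the groups compared, the replicate block or sex as a covariate, and 0 to 1 with 1 library left out. A mean of at least 5 CPM gave 0 as well, but Rad51c did not pass that filter and was not tested. The interaction called 0 of the 31 genes, 1 with no composition factor, a mean of at least 5 CPM or limma on the normalized signal, 5 with DESeq2, and 0 to 2 with 1 library left out. The wild-type age comparison called 0 of the 31 under every alternative run.

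Over all genes, D60 calls were 599, 374 at a mean of at least 5 CPM, 992 with DESeq2, 85 with sex as a covariate and 378 to 736 with 1 library left out. The fit with sex cannot separate sex from genotype at D60, since its sex term rests on D80 transgenic replicate 1. D80 calls were 6354 (4416 to 7079 with 1 library left out) and transgenic age calls 5490 (3507 to 6594, and split 5154 higher to 1098 lower against 2725 to 2765 with no composition factor). Wild-type age calls were 0, 254 with DESeq2, 5 with only the groups compared, 1 with sex as a covariate, 7 with D80 wild-type replicate 3 and D80 transgenic replicate 1 left out, and 0 to 396 with 1 library left out. Interaction calls were 768, 1745 with DESeq2, 423 with limma-voom, 1320 with limma on the normalized signal, 99 with sex as a covariate and 193 to 2419 with 1 library left out, and they split 520 higher to 136 lower with no composition factor against 425 to 343. The interaction was not run with only the groups compared, since it uses all 4.

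Values that changed sign at D80, none of them called in the main fit, were Mre11a (-0.08 in the main fit) at 0.34 with no composition factor, 0.081 with upper-quartile factors, 0.0085 at a mean of at least 5 CPM and -0.13 to 0.023 with 1 library left out (above 0 without D80 transgenic replicate 3); Rad50 (-0.28) at 0.13, Nbn (-0.14) at 0.28 and Atm (-0.20) at 0.21 with no composition factor, and Nbn at 0.022 with upper-quartile factors. Xrcc3 (0.09) went to -0.0058 with sex as a covariate, -0.18 to 0.31 with 1 library left out (-0.18 without D80 wild-type replicate 3, -0.0097 leaving out D80 transgenic replicate 1) and -0.27 without both. Fancb (0.16) went to -0.048 without D80 wild-type replicate 3 and -0.0079 leaving out D80 transgenic replicate 3. The cause was not tested for these or the other moves.

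The replicate block is not supported by the residuals. With it, 15 of the 31 genes were called at D80 and 12 between transgenic ages, Palb2 lost its call at D80 (adjusted p = 0.0507) and Parp1 gained one (adjusted p = 0.0444). Counts recovered from the normalized table, chosen after seeing the data, gave the same counts of calls. With 3 libraries per group, a p that misses the threshold does not show equal levels, and low-count genes such as Rad51b and Rad51c rest on few reads.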
